A study of Rattus norvegicus with 12 samples.

Results

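The genes of miR-26, miR-103 and miR-107, microRNAs described as regulators of insulin action in liver, were followed in rat liver after caffeine, dextromethorphan or both. Members were chosen by the number in the gene name of the deposited table, and 6 of its 444 features qualified: Mir26a, Mir26a-2, Mir26b, Mir103a1, Mir103a2 and Mir107. Small RNA was sequenced from liver of male Sprague-Dawley rats (Jcl:SD), an outbred stock, which were 7 weeks old when dosing began and were dosed by mouth on 5 consecutive days. CAF+DEX rats were given both drugs, caffeine at 120 mg/kg and dextromethorphan hydrobromide monohydrate at 100 mg/kg. CAF rats were given caffeine alone at the same 120 mg/kg, and DEX rats the dextromethorphan salt alone at 100 mg/kg. Control rats were given the vehicle of all groups, sterile distilled water. Each group held 5 rats, liver was taken 1 h after the last dose, and 3 libraries per group, 12 in all, were available. Caffeine blocks adenosine receptors, and dextromethorphan is a cough suppressant that acts on NMDA and sigma receptors.

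A microRNA is cut from a hairpin precursor and, bound to an Argonaute protein, represses messenger RNAs that pair with its seed, the bases near its 5′ end. In mouse liver, miR-26a is known to improve insulin sensitivity and to restrain glucose production, and miR-26b carries the same seed. In mice, miR-103 and miR-107 are known to act the other way: their silencing improves insulin sensitivity, and caveolin-1, which stabilises the insulin receptor, is a known target.

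The mature sequences show which members can be told apart by sequencing and which share a seed. They are those of RefSeq on the rat build GRCr8, written 5′ to 3′ with the seed, bases 2 to 8, in capitals. Of the 6 members, 5 were matched by symbol, and the Mir26a-2 sequence is not printed.
miR-26a-5p: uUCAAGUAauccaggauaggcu
miR-26b-5p: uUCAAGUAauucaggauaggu
miR-103-3p: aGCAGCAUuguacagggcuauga
miR-107-3p: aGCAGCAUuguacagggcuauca
miR-16-5p: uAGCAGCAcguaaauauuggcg
With positions counted from 1 at the 5′ end, miR-26b-5p (21 bases) differed from miR-26a-5p (22 bases) by C11U and C21U and by the absence of the last base, and miR-107-3p differed from miR-103-3p by G22C alone. The seed UCAAGUA belonged to 2 of 693 mature rat sequences, miR-26a and miR-26b, and the seed GCAGCAU to 2 of 693, miR-103 and miR-107. The sequence of miR-16, a microRNA that restrains the cell cycle, is shown because bases 3 to 8 of it match bases 2 to 7 of miR-103 and miR-107, an offset of 1 base. Its own seed, AGCAGCA, was held by 5 of 693 sequences: miR-15b, miR-16, miR-195, miR-322 and miR-497.

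In the deposited table on build rn7, Mir26a (ENSRNOG00000035582) lies at chr8:118755289-118755378 on the plus strand. Mir26a-2 (ENSRNOG00000047216) lies at chr7:62821111-62821194 and Mir26b (ENSRNOG00000035608) at chr9:75976596-75976680, both on the plus strand. Mir103a1 (ENSRNOG00000035503) lies at chr10:20244412-20244497 and Mir103a2 (ENSRNOG00000035496) at chr3:118510194-118510279, both on the plus strand. Mir107 (ENSRNOG00000035639) lies at chr1:232337767-232337853 on the minus strand. By gene spans of the RefSeq annotation of GRCr8, all 5 members matched there by symbol lay within a protein-coding gene on the same strand. Mir26a-2 was not matched, so whether it lies within a gene was not looked up. Mir107, Mir103a2 and Mir103a1 lay within Pank1, Pank2 and Pank3, which encode pantothenate kinases, the first enzymes of coenzyme A synthesis. Mir26a and Mir26b lay within Ctdspl and Ctdsp1, which encode small phosphatases of the RNA polymerase II tail. The position in exon or intron was not analysed here.

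Levels are FPKM, reads per kilobase of the hairpin scaled by the authors to a fixed total of reads on the listed features. Libraries held 2863572 to 3418568 recovered reads on the listed features. The 8 features of a hepatocyte list took 36.0 to 39.8% of the reads of a library, as a check of the labelled tissue. The liver was sequenced in bulk, so fewer cells of a type and less RNA per cell cannot be told apart. Which rat gave which library is not in the labels, so a p-value here measures only how far the samples spread, which may be technical.

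Mir26b was the most abundant member in every library, with a mean of 692208 FPKM over the 12 libraries, a place of 3 to 5 among all features and 186381 reads on average. Its mean level was 5.63 times that of Mir26a, 4.88 times that of Mir26a-2, 44.4 times that of Mir103a1 and 128 times that of Mir107. Copies share reads, so the ratios to a single copy overstate the gap to the whole form. Against both miR-26a copies together Mir26b had 2.57 times the reads on average, and both miR-103 copies together averaged 8545 reads. Mir26a-2 (mean 141744 FPKM, place 19 to 23) and Mir26a (122933 FPKM, place 22 to 25) followed, and their ranges over the libraries overlapped. Mir103a2 (15776 FPKM) and Mir103a1 (15595 FPKM) stood at places 63 to 68 with ranges that also overlapped, and Mir107 stood at places 83 to 87 with 5405 FPKM. The 6 members together took 7.97 to 9.10% of reads. The highest library exceeded the lowest by 1.30 times for Mir26a and Mir26a-2, 1.28 times for Mir107, 1.15 times for Mir103a1 and Mir103a2, and 1.13 times for Mir26b.

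Copies of one mature form share reads, so the pairs below count as 1 signal each and are uncertain as separate genes. Mir26a-2 had 1.07 to 1.08 times the reads of Mir26a in the 12 libraries, an excess of 1958 to 2986 reads. Mir103a2 had 1.01 times the reads of Mir103a1, an excess of 35 to 62 reads. Recovered reads were not whole for Mir26a, Mir26a-2 and Mir26b in 12 of 12 libraries, for Mir103a1 in 11, and for Mir103a2 and Mir107 in 10 (tolerance 0.0001 read), the pattern that dividing a multi-mapping read among its sites gives. Reads that could come from either miR-103 or miR-107 cannot be assigned from the deposited values.

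**Figure D1:**
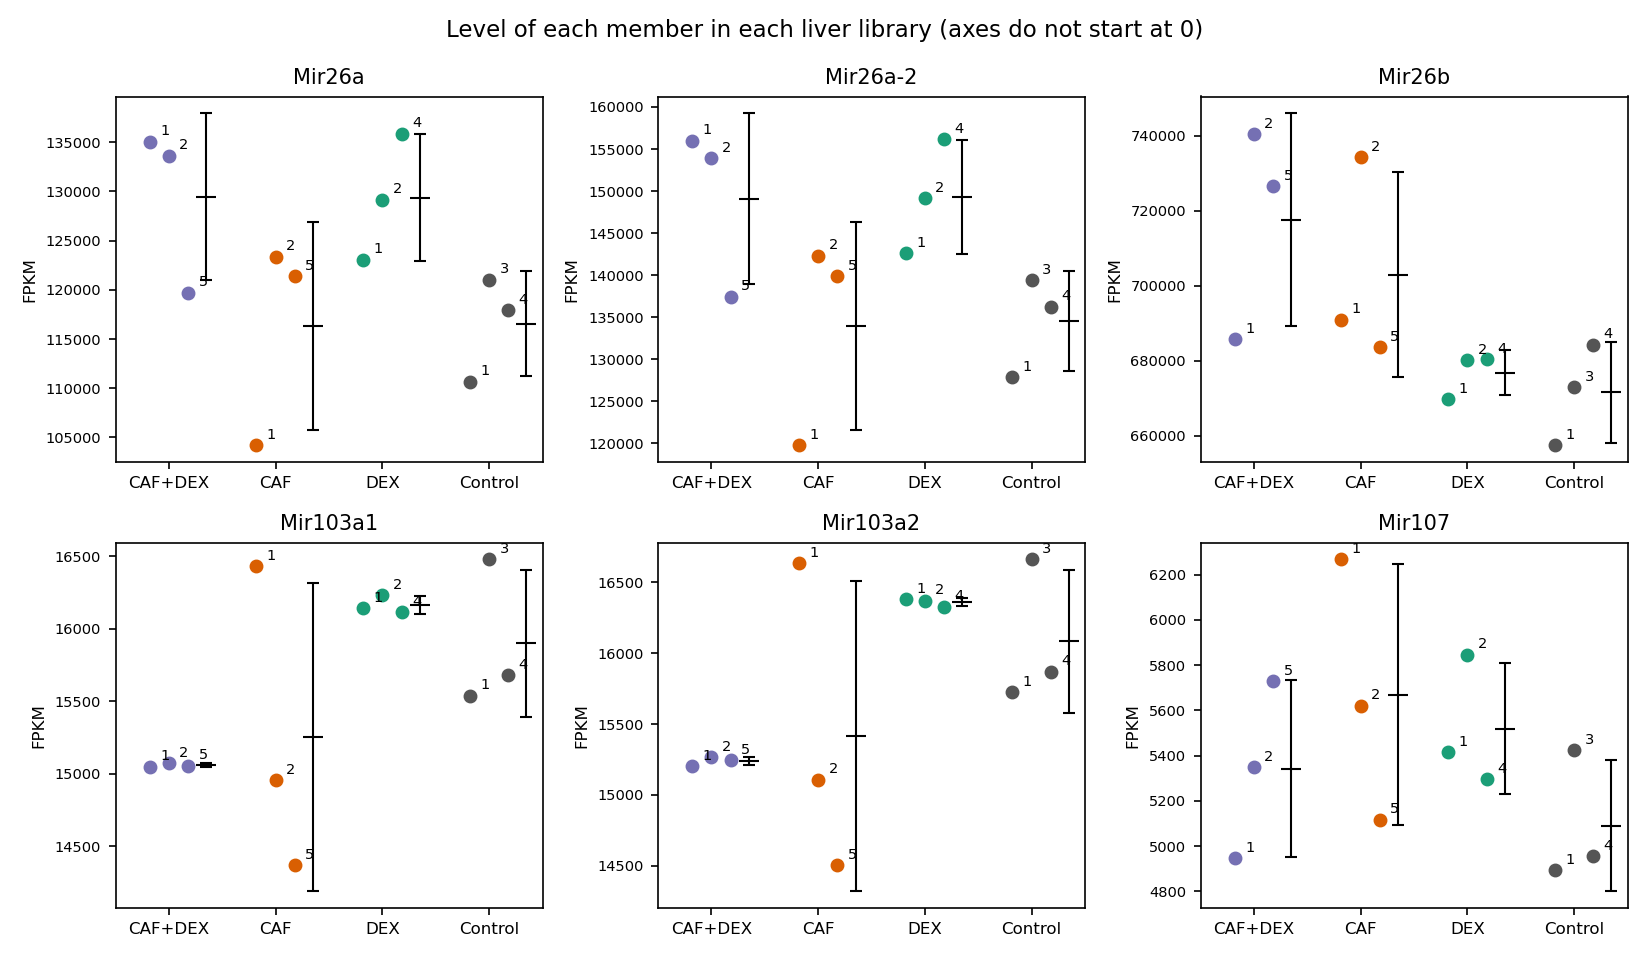
FPKM of each member in each of the 12 libraries, by group; the number beside a point is the library's number in the file header, and the bar is the group mean ± SD (n = 3). Both miR-26a copies are lowest in CAF library 1, and Mir103a1 and Mir103a2 sit within a narrow band in the CAF+DEX and the DEX libraries.

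The miR-26a copies were higher in libraries with dextromethorphan than in those without, but the difference did not pass the threshold. Mir26a stood at 135074, 133639 and 119706 FPKM in CAF+DEX libraries 1, 2 and 5, and at 104221, 123380 and 121381 FPKM in CAF libraries 1, 2 and 5. It stood at 123063, 129178 and 135884 FPKM in DEX libraries 1, 2 and 4, against 110657, 121049 and 117969 FPKM in Control libraries 1, 3 and 4. All 3 DEX libraries were above all 3 Control libraries, whereas CAF+DEX library 5 lay among the Control and CAF libraries, and CAF library 1 was the lowest of all. Mir26a-2 gave the same order of libraries within each group, at 156015, 153877 and 137444 FPKM in CAF+DEX, 119805, 142315 and 139900 in CAF, 142669, 149135 and 156157 in DEX, and 127926, 139406 and 136273 in Control.

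Differences were tested with limma on log2(FPKM + 3.80) in 1 model of 4 group means, with Benjamini-Hochberg adjustment over the 293 features above 0 in at least 3 libraries and a threshold of 0.05. All 6 members were among those tested. Averaged over both backgrounds, the 6 libraries with dextromethorphan exceeded the 6 without it by 0.15 (SE 0.05) on the log2 scale for Mir26a, with a 95% interval of 0.04 to 0.27. The unadjusted p was 0.0134, which ranked Mir26a at place 7 of 293, and the limma adjusted p was 0.497. Mir26a-2 gave the same difference (adjusted p = 0.497), at place 8. In this contrast 0 of the 293 features, 0%, passed the threshold, 22 had an unadjusted p under 0.05, and limma-voom on the recovered reads also called 0. The adjusted p for Mir26a ran from 0.284 to 0.924 over the alternative settings, and the difference was 0.06 after quantile normalization and 0.11 without CAF library 1.

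The same copies were followed in each pair of groups. The 3 comparisons with Control share their Control libraries, so their values are given side by side. Mir26a averaged 129473 ± 8489 FPKM in CAF+DEX, 116327 ± 10532 in CAF, 129375 ± 6413 in DEX and 116558 ± 5338 in Control (SD, n = 3). The log2 difference was 0.15 (95% interval -0.01 to 0.31; limma adjusted p = 0.579) for CAF+DEX against Control and 0.15 (-0.01 to 0.31; adjusted p = 0.841) for DEX against Control. For CAF against Control it was -0.01 with an interval of -0.17 to 0.16, and its sign turned without CAF library 1 (0.07). CAF+DEX against CAF gave 0.16 (-0.01 to 0.32; adjusted p = 0.899), but 0.08 without CAF library 1 and 0.07 after quantile normalization. CAF+DEX against DEX gave 0.00 (-0.16 to 0.16). The interaction, which asks whether both drugs together differ from the sum of each, was 0.01 (-0.22 to 0.24).

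In DEX against Control, 2 of the 6 members, the miR-26a copies, had all libraries above Control, as had 6.83% of all tested features. These copies share reads and are not separate signals, so their count cannot be weighed against that share. In that comparison 0 of 293 features (0%) passed in limma, with 13 at an unadjusted p under 0.05 and 0 in limma-voom.

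Mir26b stood at 685803, 740451 and 726487 FPKM in CAF+DEX libraries 1, 2 and 5, and at 690916, 734230 and 683550 FPKM in CAF libraries 1, 2 and 5. It stood at 669780, 680156 and 680359 FPKM in DEX libraries 1, 2 and 4, against 657500, 672966 and 684295 FPKM in Control libraries 1, 3 and 4. All CAF+DEX libraries lay above all DEX and all Control libraries, narrowly so for library 1, while CAF and Control overlapped. The group means were 717581 ± 28392 FPKM in CAF+DEX, 702898 ± 27382 in CAF, 676765 ± 6050 in DEX and 671587 ± 13450 in Control (SD, n = 3).

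On the log2 scale Mir26b differed by 0.09 (95% interval -0.01 to 0.20; limma adjusted p = 0.581) between CAF+DEX and Control, and by -0.06 after quantile normalization. It differed by 0.08 (-0.02 to 0.19; adjusted p = 0.625) between CAF+DEX and DEX, and by -0.06 after quantile normalization. The 6 libraries with caffeine differed from the 6 without it by 0.07 (interval -0.0016 to 0.15; adjusted p = 0.346), and by -0.02 after quantile normalization. CAF against Control gave 0.07 (-0.04 to 0.17), and 0.03 without CAF library 2. DEX against Control gave 0.01 (-0.10 to 0.12). No Mir26b difference passed the threshold.

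Mir103a1 stood at 15051, 15075 and 15058 FPKM in CAF+DEX libraries 1, 2 and 5, and at 16431, 14956 and 14370 FPKM in CAF libraries 1, 2 and 5. It stood at 16144, 16234 and 16116 FPKM in DEX libraries 1, 2 and 4, against 15541, 16480 and 15684 FPKM in Control libraries 1, 3 and 4. Every CAF+DEX library was below every DEX and every Control library, and the CAF libraries spanned nearly the whole range. Mir103a2, its copy, stood at 15205, 15266 and 15247 FPKM in CAF+DEX, 16634, 15108 and 14506 in CAF, 16383, 16372 and 16330 in DEX, and 15724, 16663 and 15871 in Control. Its libraries fell into the same arrangement.

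For Mir103a1 the log2 difference was -0.08 (95% interval -0.21 to 0.05; limma adjusted p = 0.867) for CAF+DEX against Control, and -0.10 (-0.23 to 0.03; adjusted p = 0.623) for CAF+DEX against DEX. The difference of the 6 libraries with caffeine from the 6 without it was -0.08 (-0.17 to 0.01; adjusted p = 0.388). CAF against Control gave -0.06 (-0.19 to 0.07), and -0.12 without CAF library 1 or -0.02 without CAF library 5. DEX against Control gave 0.02 (-0.10 to 0.15), and 0.05 without Control library 3 or 0.0078 without Control library 1. Mir103a2 gave -0.08, -0.10, -0.08, -0.06 and 0.02 in the same contrasts, and none of these differences passed the threshold.

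In CAF+DEX against Control, Mir26b was the member with all libraries above, as had 7.17% of all tested features, and the miR-103 copies, 2 of the 6 members, had all libraries below, as had 7.51%. The miR-103 copies share reads and are not separate signals. In CAF+DEX against DEX the same counts of members stood against 4.78% of features above and 8.87% below. No feature passed in either comparison in limma (0 of 293, 0%, in each), with 30 and 23 at an unadjusted p under 0.05, and limma-voom called 0 in each.

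The spread of miR-103 within 2 groups was below that of counting alone. The coefficient of variation of the summed reads of both copies, as a share of the library, was 0.140% in CAF+DEX, where 8475 reads on average give a Poisson value of 1.09%. In DEX it was 0.245%, with a Poisson value of 1.06%. In CAF it was 7.04%, with a Poisson value of 1.13%, and in Control 3.16%, with 1.06%. These Poisson values cover counting error only. A read divided only between the 2 copies counts whole in their sum, while reads divided with other sites do not. The cause of the low spread was not tested. Each spread rests on 3 libraries, which give an imprecise estimate. For the miR-26a copies, Mir26b and Mir107 the spread exceeded the Poisson value in each of the 4 groups.

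Mir107 stood at 4948, 5348 and 5730 FPKM in CAF+DEX libraries 1, 2 and 5, and at 6268, 5621 and 5117 FPKM in CAF libraries 1, 2 and 5. It stood at 5415, 5846 and 5295 FPKM in DEX libraries 1, 2 and 4, against 4893, 5425 and 4954 FPKM in Control libraries 1, 3 and 4. The groups overlapped in every pair, and CAF library 1 was the highest. The group means were 5342 ± 391 FPKM in CAF+DEX, 5669 ± 577 in CAF, 5519 ± 290 in DEX and 5091 ± 291 in Control (SD, n = 3).

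The log2 difference of Mir107 was 0.07 (95% interval -0.12 to 0.26; limma adjusted p = 0.968) for CAF+DEX against Control, and with 1 library left out ran from 0.02 without CAF+DEX library 5 to 0.12 without CAF+DEX library 1. It was 0.12 (-0.08 to 0.31; adjusted p = 0.841) for DEX against Control, and 0.07 without DEX library 2. For CAF against Control it was 0.15 (-0.04 to 0.34; adjusted p = 0.505), and 0.08 without CAF library 1. The interaction was -0.20 (SE 0.13; -0.47 to 0.07; adjusted p = 0.924). With 1 library left out it ran from -0.27 without CAF library 5 to -0.12 without CAF library 1. In the interaction 0 of 293 features (0%) passed in limma, 16 had an unadjusted p under 0.05, and limma-voom called 0.

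**Figure D2:**
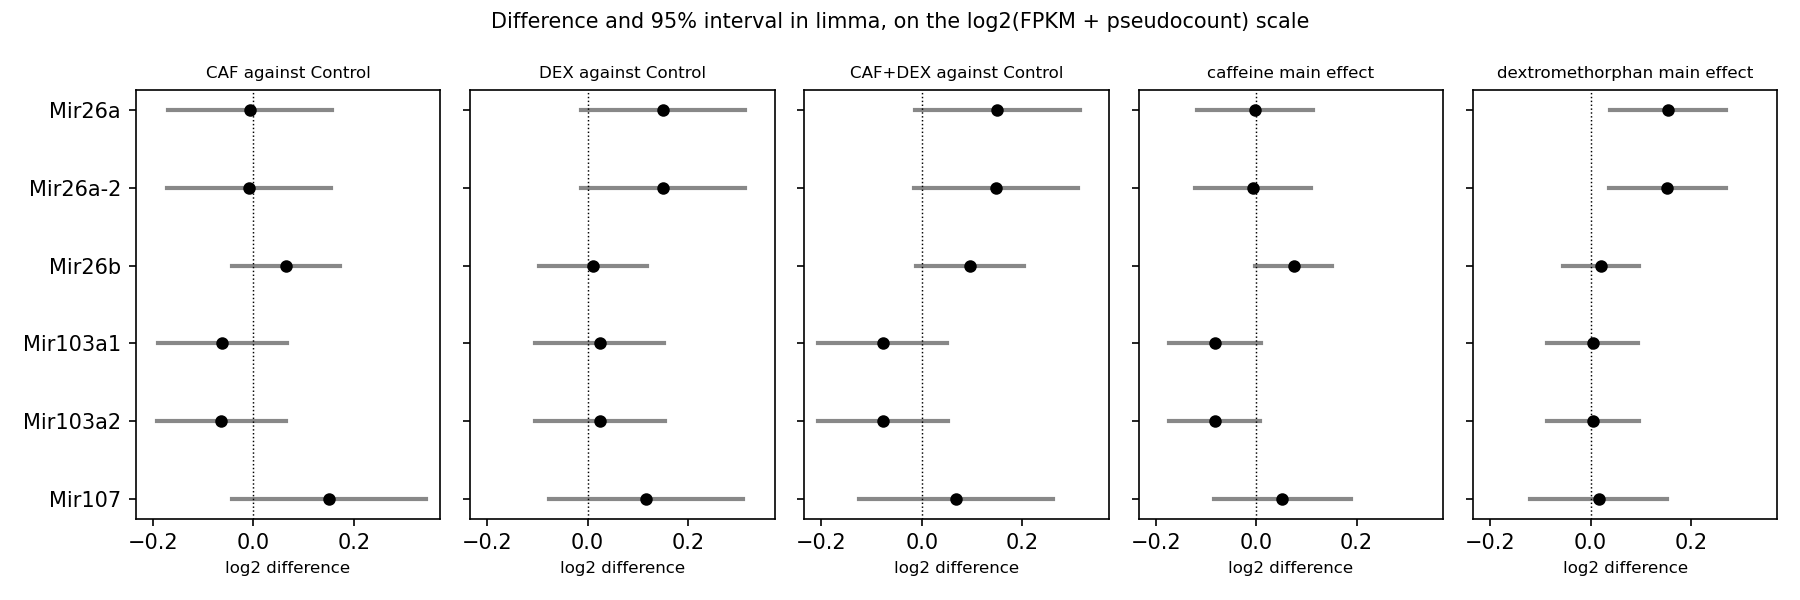
Log2 difference (points) and 95% interval (bars) of each member in 5 contrasts, the drug group minus Control or libraries with a drug minus those without, from limma on log2(FPKM + 3.80) with 12 libraries. The intervals of Mir26a and Mir26a-2 in the dextromethorphan main effect, 0.04 to 0.27, are those that leave out 0, and no member passed after adjustment.

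Over all 8 contrasts, 0 of the 6 members passed the threshold, and 2 of the 48 differences had an unadjusted p under 0.05, those of the miR-26a copies for dextromethorphan. The copies share reads, so these 2 are not separate results. In CAF against Control 0 members passed, where 0.683% of all tested features did, and in the contrast of caffeine against no caffeine likewise 0 passed against 0.683%. In CAF+DEX against CAF 0 members passed, as did 0 of 293 features (0%), with 15 at an unadjusted p under 0.05 and 0 in limma-voom. The moderated F test over the 4 groups gave limma adjusted p-values of 0.497 for both miR-26a copies, 0.690 for Mir26b, 0.745 and 0.743 for Mir103a1 and Mir103a2 and 0.820 for Mir107, while 0.341% of features passed. Apart from the interaction, the 95% intervals of all members ran no further than -0.28 and 0.34. A p above the threshold does not show that groups are alike. Each interval holds at 95% on its own and rests on the spread of the libraries, which may be technical. The intervals therefore do not bound the differences between rats.

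Sums and ratios of reads within a library do not depend on its depth. The miR-26 genes took 8.52 ± 0.24% of reads in CAF+DEX, 8.15 ± 0.37% in CAF, 8.17 ± 0.16% in DEX and 7.89 ± 0.20% in Control (SD, n = 3). The miR-103 and miR-107 genes took 0.307 ± 0.0036% in CAF+DEX, 0.313 ± 0.0235% in CAF, 0.328 ± 0.0032% in DEX and 0.319 ± 0.0112% in Control. The miR-26 share was above all Control libraries in each CAF+DEX library, and the smaller share overlapped Control in CAF and in DEX but lay below it in CAF+DEX. Of single tested features, 7.17% had all CAF+DEX libraries above Control and 7.51% below. Mir26b gave 186381 of the 259253 miR-26 reads on average, and the miR-103 copies gave 8545 of the 10034 reads of the smaller sum. Both arrangements largely repeat those given for Mir26b and miR-103 and are not further results.

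Mir26b had 2.53 ± 0.23 times the reads of both miR-26a copies in CAF+DEX, 2.76 ± 0.23 times in CAF, 2.38 ± 0.09 times in DEX and 2.62 ± 0.09 times in Control (SD, n = 3). All DEX libraries were below all Control and all CAF libraries in this ratio. The miR-103 copies had 5.23 to 6.04 times the reads of Mir107 in CAF+DEX, 5.21 to 5.58 times in CAF, 5.51 to 6.06 times in DEX and 6.04 to 6.32 times in Control. All CAF libraries were below all Control libraries, while the highest DEX and CAF+DEX libraries reached past the lowest Control library. The miR-26 genes had 27.1 to 28.6 times the reads of the miR-103 and miR-107 genes in CAF+DEX, 23.1 to 27.8 times in CAF, 24.5 to 25.6 times in DEX and 24.0 to 25.5 times in Control. All CAF+DEX libraries were above all DEX and all Control libraries in this ratio, and CAF library 1 was the lowest of all. The ratios were chosen after the levels were known and carry no test. The last of them combines the arrangements already given for Mir26b and miR-103, so it is not a further result.

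**Figure D3:**
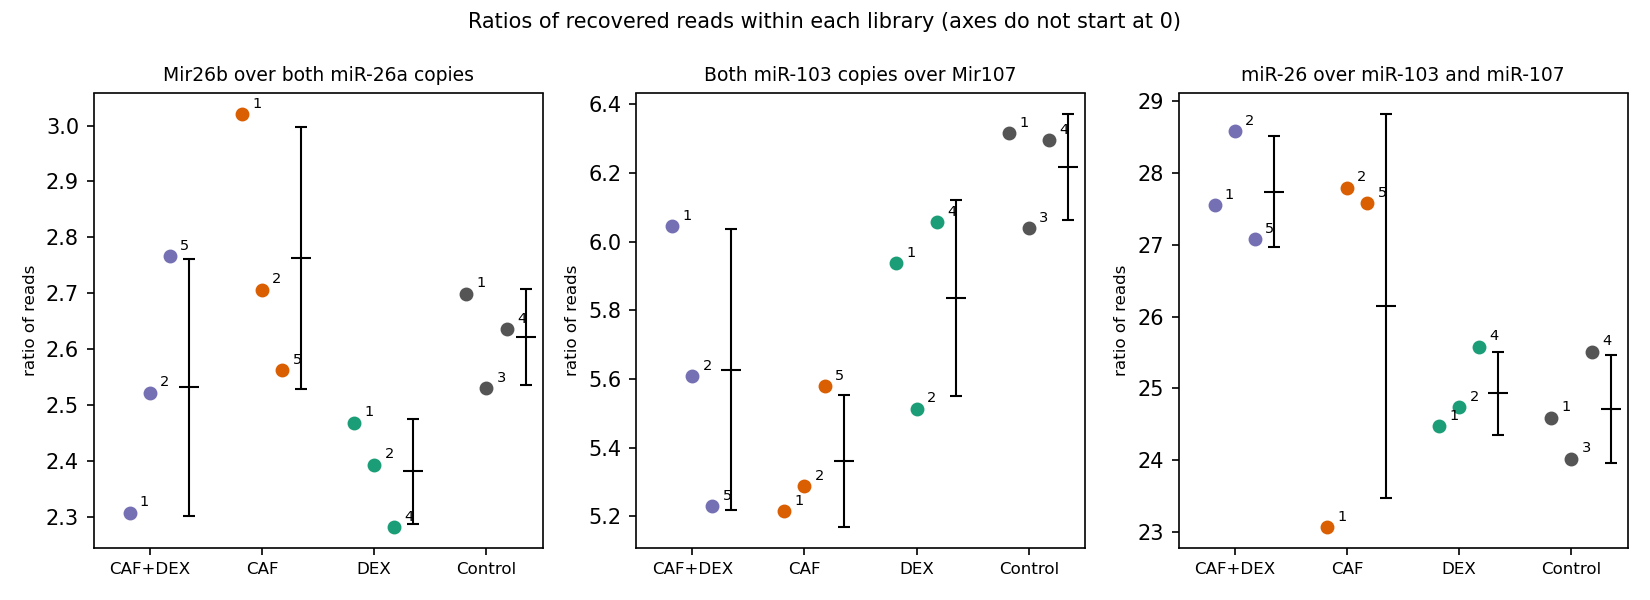
Ratio of recovered reads in each of the 12 libraries, by group, for Mir26b over both miR-26a copies (left), both miR-103 copies over Mir107 (middle) and the miR-26 genes over the miR-103 and miR-107 genes (right); bars are mean ± SD (n = 3). The middle ratio is 5.21 to 5.58 in CAF, below the 6.04 to 6.32 of Control.

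No pair of the 4 mature forms passed a test of correlation across libraries. Among the 6 pairs of forms, Pearson's r over the 12 libraries ran from -0.48 to 0.40, with a permutation p adjusted over the 6 pairs of 0.500 for each, and Spearman's rho from -0.47 to 0.41, with adjusted permutation p of 0.561 to 0.782. The highest r was that of miR-103 with Mir107, 0.40, and 0.37 without the 2 libraries farthest from the median. The lowest was that of Mir26b with miR-103, -0.48, and -0.32 without the 2 farthest libraries. After each group's mean was taken out, a description without a test, r was 0.79 for miR-103 with Mir107 and -0.0079 for Mir26b with miR-103. Over the other pairs it then ran from -0.57 to 0.33. Reads that could come from either miR-103 or miR-107 cannot be assigned, and their part in the r of that pair was not tested.

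Features most like each form were named by Pearson's r over the 12 libraries among 129 features averaging at least 100 reads. These libraries share depth, composition and groups, so the values are descriptions. The miR-26a copies were most like Mirlet7a1 (r = 0.89), Mir143 (0.80) and Mirlet7b (0.80). The let-7 microRNAs restrain growth and insulin signalling genes, and Mir143 is a smooth muscle and stellate cell microRNA that in mouse liver impairs insulin signalling. The 4 features of the stellate, muscle and mesenchymal list, which includes Mir143, took 2.30 to 3.16% of reads in CAF+DEX and 2.11 to 2.91% in CAF libraries, and 2.63 to 2.73% in DEX against 2.40 to 2.71% in Control libraries, and none was at 0. Their part in the miR-26a levels was not tested.

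Mir26b was most like Mir24-2 (0.71), a feature listed without a symbol (ENSRNOG00000066772, 0.64) and Mir29b1 (0.63). With each group's mean taken out, these values were 0.46, 0.18 and 0.51. The miR-103 copies were most like Mir144 (0.80), an erythroid microRNA, Mir8 (0.80) and Mir7-1 (0.79). The 3 erythroid features took 0.0847 to 0.0940% of reads in CAF+DEX and 0.0602 to 0.114% in CAF libraries, and 0.0906 to 0.122% in DEX against 0.101 to 0.121% in Control libraries. All CAF+DEX libraries were below all Control libraries in that share, as they were for miR-103 and for 7.51% of all tested features. The erythroid list includes Mir144, named here for its likeness to miR-103, so this match is not a separate result. The part of the erythroid share in the miR-103 levels was not tested. Mir107 was most like Mir361 (0.61), Mir186 (0.60) and Mir674 (0.57). With group means taken out, r was 0.49 to 0.79 for these features. It was 0.72 to 0.76 for those named for miR-103 and 0.85 to 0.92 for those named for the miR-26a copies.

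The 6 features of the leukocyte list took 1.96 to 2.40% of reads in CAF+DEX and 1.75 to 2.15% in CAF, against 2.59 to 2.97% in DEX and 2.63 to 2.99% in Control, and none was at 0. All libraries with caffeine were below all libraries without it, and the part of this share in the Mir26b and miR-103 values was not tested.

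Other microRNAs tied to insulin action or glucose handling were read from a list of 23, of which 22 were tested. In limma 0 passed in any of the 8 contrasts. In CAF+DEX against Control 14 of 22 were above 0 with a median log2 difference of 0.07, against -0.01 over all tested features. In CAF against Control 13 of 22 were above 0 with a median of 0.02, against 0.00 over all features, and in DEX against Control 16 of 22 with a median of 0.06, against 0.00. In DEX every tested let-7 gene of the list was above 0, from 0.07 (Mirlet7f2) to 0.18 (Mirlet7d), as were both miR-29b copies. In CAF and in CAF+DEX the let-7 genes lay on both sides of 0. Genes of one family are not independent, so these are not counts of separate signals.

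The list members with the smallest p were the copies Mir29b-3 and Mir29b1 in each comparison with Control. They give rise to miR-29b, which represses collagen genes and, in insulin-responsive tissues, is known to dampen insulin signalling. Mir29b-3 differed by 0.25 (SE 0.06; limma adjusted p = 0.0914) in CAF+DEX, 0.23 (0.06; adjusted p = 0.0898) in CAF and 0.20 (0.06; adjusted p = 0.314) in DEX, each against the same Control libraries. Mir29b1 differed by 0.24 (SE 0.05; adjusted p = 0.0914) in CAF+DEX, 0.21 (0.05; adjusted p = 0.107) in CAF and 0.20 (0.05; adjusted p = 0.314) in DEX. None of these 6 differences passed the threshold.

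**Figure D4:**
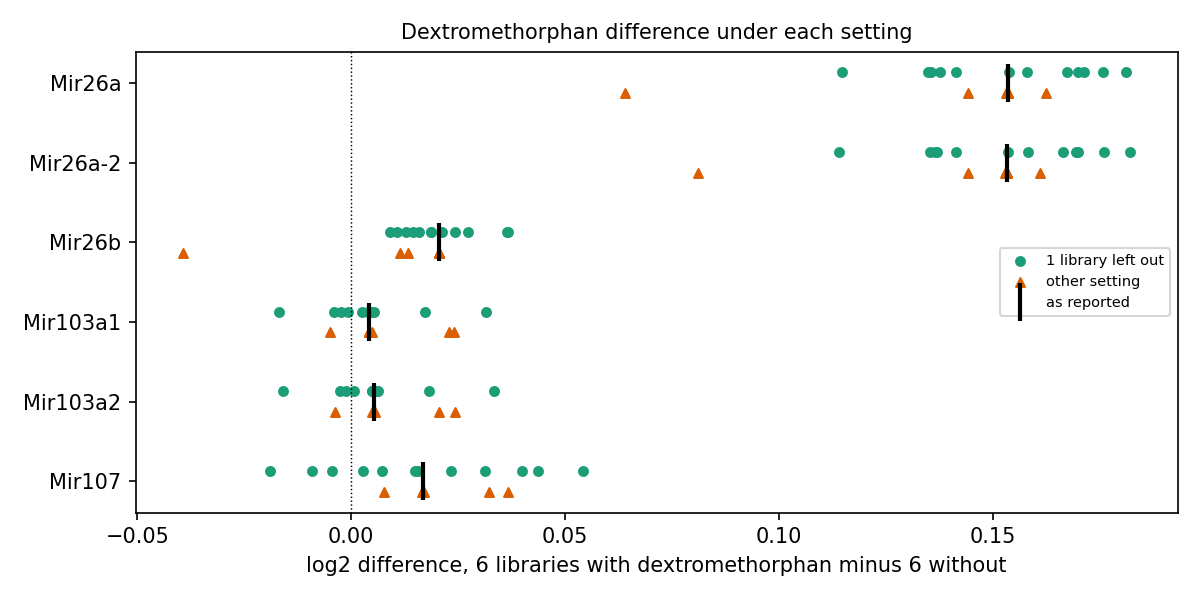
Log2 difference of the 6 libraries with dextromethorphan minus the 6 without it for each member, as reported (bars), with 1 library left out (circles) and under the other settings (triangles). Mir26a stays between 0.06 and 0.18 over the settings, while Mir26b, the miR-103 copies and Mir107 lie on both sides of 0.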

How the data were processed

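Per the labels' protocols, small RNA libraries came from a QIAseq kit with unique molecular indices. The sources used here do not give whether indices were collapsed. The submitters' processing notes name rn7, featureCounts, Subread 2.0.6, STAR 2.7.11b and cutadapt 3.7. The authors deposited FPKM for 444 features, scaled to reads on these features: in each library the products of FPKM and length in kilobases add up to 1000000. Reads recovered from the FPKM came out as multiples of 0.01, and none of the 12 pairs of libraries within a group were copies, at 39.1 to 200 chi-square units for each degree of freedom; pairs across groups were not compared. The numbers in the column headers name libraries and could be matched to a group, not to a sample title.

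The 293 features above 0 in at least 3 of 12 libraries were tested with limma-trend (limma 3.58.1, R 4.3.3) on log2(FPKM + 3.80), where 3.80 FPKM is the 10th percentile of values above 0. On this scale the changes of rare features come out too small. One model of 4 group means gave 8 contrasts and an F test, with Benjamini-Hochberg adjustment over 293 features. The fit was checked on simulated data, with changes planted in CAF that were larger than the member differences reported here. That check cannot show whether differences as small as those of the members would be found. Alternatives were pseudocounts, filters, scalings, limma-voom on recovered reads, a fit of the compared groups alone, summed copies, a replicate block and leaving out each library.

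All members were named, as were the 2 listed insulin or glucose microRNAs with the smallest p in each comparison with Control and the 3 features most like each form. Members and lists were chosen with earlier results of these data known.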

Additional observations from a re-analysis of the deposited data

How the results depend on the processing

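No member passed the threshold under any of the 22 alternative settings. The lowest limma adjusted p was that of Mir103a2 for caffeine, which ran from 0.138 to 0.962 over these settings. Of 48 differences, 23 changed sign in at least 1 setting, and the largest of these as reported was 0.095 in size; the causes were not tested. Quantile normalization ties a value to its rank, which leaves abundant features few levels to take. Under it Mir26b gave -0.058 for CAF+DEX against Control, -0.079 for CAF+DEX against CAF, -0.058 for CAF+DEX against DEX, -0.079 for the interaction, -0.019 for caffeine and -0.039 for dextromethorphan, and Mir26a gave 0.089 for CAF against Control and 0.098 for caffeine. Median scaling shifted no library by more than 0.05 on the log2 scale. It gave Mir26a 0.012 for CAF against Control and 0.018 for caffeine, and Mir26a-2 0.0093 and 0.015 in the same contrasts and 0.021 for CAF+DEX against DEX. It gave Mir26b -0.00093 for DEX against Control, and Mir103a1 -0.0050 and Mir103a2 -0.0038 for dextromethorphan. Mir26a in CAF+DEX against DEX was -0.00080 in limma-voom and -0.0017 with copies summed.

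The header numbers gave no sign of pairing: the 11 correlations of same-numbered deviations ran from -0.13 to 0.10, and 1 was over 0.1. Deviations from means of 3 libraries cannot decide whether same-numbered libraries were handled together. With the replicate block, Mir26b gave -0.0032 for DEX against Control and Mir26a-2 gave 0.034 for CAF+DEX against DEX. Mir26a gave -0.012 for the interaction and 0.045 for caffeine, and Mir26a-2 gave -0.010 and 0.039. The block moved the count of all features called to 1 in DEX against Control and to 0 for caffeine.

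Counts of all features called moved in other settings too. For caffeine 5 passed with 10 times the pseudocount, 10 with the stricter filter, 5 after quantile normalization, 11 after median scaling and 4 in limma-voom, against 2 as reported. For CAF against Control 0 passed with no filter, 0 in a fit of those groups alone and 4 after quantile normalization. For CAF+DEX against Control 2 passed with 10 times the pseudocount, 2 with the stricter filter and 1 after quantile normalization, and for CAF+DEX against DEX 1 passed after quantile normalization. With no filter 0 passed the F test.

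When each library was left out in turn, Mir26a ran from -0.050 to 0.071 and Mir26a-2 from -0.054 to 0.070 for CAF against Control, the highest values being those without CAF library 1. For CAF+DEX against DEX they ran from -0.035 to 0.056 and from -0.037 to 0.054, for the interaction from -0.071 to 0.062 and from -0.073 to 0.063, and for caffeine from -0.025 to 0.036 and from -0.029 to 0.033. Mir26b ran from -0.0040 to 0.025 for DEX against Control and from -0.0045 to 0.051 for the interaction. Mir103a1 and Mir103a2 ran from -0.058 to 0.039 and from -0.057 to 0.042 for CAF+DEX against CAF, from -0.082 to 0.015 and from -0.082 to 0.017 for the interaction, and from -0.017 to 0.032 and from -0.016 to 0.033 for dextromethorphan. Mir107 ran from -0.10 to 0.0057 for CAF+DEX against DEX and from -0.019 to 0.054 for dextromethorphan. Counts of features called ran from 0 to 10 for CAF against Control, from 1 to 10 for caffeine and from 0 to 4 in the F test, with the highest of each without CAF library 1. They ran from 0 to 1 for DEX against Control, CAF+DEX against DEX and the interaction. The 3 libraries per group limit the precision.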
